A study of Mus musculus with 18 samples.

Results

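Tanc2, Kcnh6, Dcaf7 and Kpna2 are 4 of the 45777 genes in the deposited table. They were selected on measured values: they are genes of mouse chromosome 11 that start within a window of 2 Mb, which holds 36 tested genes, and were all higher in Sirt6-deficient than in control mast cells. All 4 passed the filter on low counts, as did 17159 genes in all. Because the difference between the genotypes chose them, that difference is described here without a test, and only the responses to treatment, the neighbouring genes and related gene groups are tested or compared. The responses share libraries with that difference, so they are not independent of the choice. The 18 RNA-seq libraries came from bone marrow-derived mast cells (BMMC), which are grown in culture from marrow flushed from mouse femurs and tibias. KO libraries are labelled LysM-Cre; Sirt6 flox/flox, that is, both Sirt6 alleles flanked by loxP sites with Cre recombinase under the lysozyme M promoter, a promoter used in cells of the myeloid lineage. WT libraries are labelled Sirt6 flox/flox, so the loxP-flanked alleles are shared by every sample and Cre is the labelled difference. Each genotype was sampled at levels 0, 20 and 60, with 3 libraries per group. The labels give LPS, a bacterial cell wall component sensed by TLR4, as the treatment at 20 and 60 and none at 0, while no source used here states the unit of the levels or the age of the mice. Libraries carry the numbers 4120, 414 and 6110 in both genotypes, and the labels do not say whether a number is an animal, a pair of littermates or a culture, so the p-values reflect only how far these libraries vary, which may be technical variation.

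The 4 proteins have unrelated roles. Tanc2 is a large scaffold protein with ankyrin and tetratricopeptide repeats, best known from neuronal synapses. Kcnh6 is a voltage-gated potassium channel of the ERG group, whose members shape the return of the membrane potential to rest in excitable cells. Dcaf7 is a WD40-repeat adaptor that binds DYRK and HIPK kinases and is counted among the substrate receptors of CUL4-DDB1 ubiquitin ligases. Kpna2 is an importin alpha, the adaptor that recognises nuclear localisation signals and hands cargo to importin beta (Kpnb1) for passage into the nucleus, and it is known as abundant in dividing cells.

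The genes lie on chromosome 11 of GRCm38 (mm10) in the order Tanc2 (gene ID 77097, 105589460 to 105929304, plus strand), Kcnh6 (192775, 106008044 to 106035595, plus strand), Dcaf7 (71833, 106036872 to 106059324, plus strand) and Kpna2 (16647, 106988629 to 106999525, minus strand). The first 3 are close together: 78.7 kb separate Tanc2 from Kcnh6, and Dcaf7 starts 1276 bp after the end of Kcnh6 on the same strand. Kpna2 stands apart from them, with 929 kb and 24 other tested gene starts between Dcaf7 and Kpna2. The 4 are therefore not an unbroken run of neighbours, since 25 other tested genes start between the outer pair.

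The 250 bases before each gene's start, taken from RefSeq for GRCm38.p6 and written along the gene's strand, are given because the 4 genes were grouped by position and similar direction. All 4 genes matched an entry. The start used there lies 526 bases inside the annotated span of Tanc2 and 104 bases inside that of Kcnh6, since other transcript models begin earlier. Capitals mark matches on either strand to any of 6 motifs. They were the CCAAT box, the GC box searched as GGGCGG, the TATA box searched as TATAAA, the E-box searched as CACGTG, the CHR element, known from promoters of late cell cycle genes and searched as TTTGAA, and the AP-1 motif searched as TGANTCA. GC boxes that overlap one another form longer capital runs.
Tanc2, chr11:105589736-105589985, plus strand: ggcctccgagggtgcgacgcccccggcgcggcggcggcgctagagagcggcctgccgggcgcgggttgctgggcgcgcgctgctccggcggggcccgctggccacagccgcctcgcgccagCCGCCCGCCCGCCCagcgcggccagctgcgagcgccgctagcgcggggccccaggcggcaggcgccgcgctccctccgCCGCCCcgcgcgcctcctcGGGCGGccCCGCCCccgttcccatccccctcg
Kcnh6, chr11:106007898-106008147, plus strand: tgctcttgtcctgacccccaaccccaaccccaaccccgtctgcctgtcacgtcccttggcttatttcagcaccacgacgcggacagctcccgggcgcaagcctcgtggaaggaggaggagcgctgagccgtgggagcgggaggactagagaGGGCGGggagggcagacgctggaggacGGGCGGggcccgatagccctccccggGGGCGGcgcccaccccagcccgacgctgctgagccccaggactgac
Dcaf7, chr11:106036622-106036871, plus strand: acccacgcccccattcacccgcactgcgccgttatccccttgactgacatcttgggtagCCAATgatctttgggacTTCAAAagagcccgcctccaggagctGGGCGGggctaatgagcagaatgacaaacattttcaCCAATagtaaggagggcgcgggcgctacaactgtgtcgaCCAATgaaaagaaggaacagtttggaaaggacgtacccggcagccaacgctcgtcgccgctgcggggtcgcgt
Kpna2, chr11:106999526-106999775, minus strand: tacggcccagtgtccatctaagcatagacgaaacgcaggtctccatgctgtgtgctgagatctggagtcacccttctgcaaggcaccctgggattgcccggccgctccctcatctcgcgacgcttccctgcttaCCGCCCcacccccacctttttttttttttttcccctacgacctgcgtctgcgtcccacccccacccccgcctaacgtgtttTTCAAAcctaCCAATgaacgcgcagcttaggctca

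These 4 windows had no shared pattern beyond the GC box. Tanc2 had 6 GC boxes in a window of 85.6% G and C, Kcnh6 had 3 in one of 70.8%, and Dcaf7 and Kpna2 had 1 each at 57.2% and 57.6%, against a median of 52.4% over 32851 promoters. GGGCGG occurred in 32.7% of those promoters. CCAAT, found in 33.8% of promoters, occurred 3 times before Dcaf7 and 1 time before Kpna2. TTTGAA, found in 16.0% of promoters, occurred 1 time in each of the same 2 genes. In Kpna2 the TTTGAA and CCAAT matches began 35 and 25 bases before the start, next to each other. None of the 4 windows held TATAAA (12.4% of promoters), CACGTG (6.02%) or TGANTCA (6.75%).

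Library totals lay between 20026054 and 42265435 counts, and 37 mitochondrial genes took 4.09% to 34.7% of them in KO (mean 11.5%) and 6.56% to 41.9% in WT (mean 20.8%). The share was lower in KO in 7 of 9 pairs of the same number and level, and its part in the differences below was not tested beyond the fit with it as a covariate, in which every KO against WT difference of the 4 genes kept its sign. All 10 mast cell markers were counted in every group, with summed levels of 24200 to 40800 CPM (counts scaled to a common library size of 1e6) in KO and 15500 to 45900 CPM in WT libraries. In KO against WT none of them was called (edgeR adjusted p under 0.05) at a single level. In the mean of the levels only Kit was called, higher in KO (2045 CPM in KO, 1284 CPM in WT, log2 difference 0.66, edgeR adjusted p = 0.018). Summed over 12 neutrophil and granulocyte precursor markers, the level was 10.6 to 69.4 CPM in KO and 4.13 to 19.5 CPM in WT, without overlap within a level, and 3 of the 12 had no count in WT at 0. None of the 11 tested was called (edgeR adjusted p under 0.05) at a single level, and in the mean of the levels 6 were called higher in KO. The 10 macrophage and monocyte markers summed to 172 to 357 CPM in KO and 117 to 275 CPM in WT, which overlap. Of the 8 tested, 6 had a positive difference in the mean of the levels, where Itgam was called higher and Lyz2 lower. Itgam was also called higher at 0 alone (log2 difference 4.7, edgeR adjusted p = 0.033), on 101 counts in KO and 3 in WT. The 3 basophil markers summed to 114 to 198 CPM in KO and 121 to 233 CPM in WT, also overlapping. Most of these sums was Cd200r3, which averaged 144.6 CPM in KO and 158.5 CPM in WT and was not called. The other markers, Mcpt8 (9.21 CPM in KO, 2.17 CPM in WT) and Prss34 (3.07 CPM in KO, 0.495 CPM in WT), were called higher in the mean of the levels. Neutrophil markers, and Mcpt8 and Prss34 among the basophil markers, thus moved with the genotype. Of the 8 tested macrophage and monocyte markers 6 were higher in KO, against 50.5% of all tested genes. From so few nothing is read, and only Itgam was called higher. The only one called lower was Lyz2, whose own promoter drives Cre. The part of any of these groups of markers in the difference of the 4 genes was not tested. Over all tested genes, 4.29% were called higher in KO and 6.62% lower in the mean of the levels. That comparison takes the 3 libraries of a number as separate, although they deviated from their group means together in 3 of the 4 comparisons of levels, so its p-values may be too small. In these bulk samples fewer cells of a type and less RNA per cell cannot be told apart. At 0 the mean level of Sirt6 itself was 16.7 ± 2.66 CPM in KO, against 14.6 ± 2.44 CPM in WT (SD, n = 3 each). A count of the whole gene does not single out the deleted exons, so it checks no label, and every direction below rests on the labels. Lyz2, the gene whose promoter drives Cre, averaged 0.0938 CPM in KO and 2.09 CPM in WT over 9 libraries each.

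Kcnh6 showed the largest difference of the 4: it was counted at a trace level in WT cells and at a clear level in every KO library. At level 0 it had 27.2, 30.2 and 8.77 CPM in KO (numbers 4120, 414 and 6110) and 0.431, 1.28 and 2.07 CPM in WT. At level 20 it had 19.1, 18.7 and 12.96 CPM in KO and 1.39, 1.25 and 1.59 CPM in WT. At level 60 it had 18.02, 54.0 and 12.5 CPM in KO and 0.658, 2.91 and 1.91 CPM in WT. No KO library overlapped any WT library, and the lowest KO value was 3.01 times the highest WT value. As the 4 genes were chosen as higher in KO, such separation, here and for the genes below, follows in part from the choice. The share of all tested genes that separate in this way is not given here, so nothing is read from it. The WT values rest on few reads, from 7 to 66 counts per library, against 382 to 953 in KO. The fitted log2 fold change, KO over WT, was 4.08 ± 0.681 at 0, 3.58 ± 0.666 at 20 and 3.97 ± 0.675 at 60 (SE). KO number 6110 had the lowest KO value at each level, and the smallest ratio to the WT library of its own number, from 4.24 to 8.17. Number 414 at 60 was the highest library, and without it the log2 fold change at 60 was 3.08. Of its counts 34.7% were mitochondrial. That share was 4.47% and 4.29% in KO numbers 4120 and 6110 at 60.

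Tanc2 was near 3 times higher in KO at all 3 levels, with little change along them. At level 0 it had 24.3, 27.4 and 30.0 CPM in KO and 8.73, 7.72 and 12.7 CPM in WT. At level 20 it had 35.5, 30.1 and 24.4 CPM in KO and 7.23, 10.4 and 14.7 CPM in WT. At level 60 it had 37.3, 27.3 and 29.6 CPM in KO and 7.90, 9.43 and 13.5 CPM in WT. The groups did not overlap, and WT number 6110 was the highest WT library at each level. The log2 fold change was 1.48 ± 0.276 at 0, 1.47 ± 0.276 at 20 and 1.61 ± 0.277 at 60 (SE). Between libraries of the same number, the KO over WT ratio ran from 1.65 in number 6110 at 20 to 4.90 in number 4120 at 20.

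Dcaf7 had the smallest difference of the 4, with KO values near 1.8 times the WT values in the mean of the levels. At level 0 it had 64.1, 92.4 and 94.2 CPM in KO and 32.2, 43.7 and 47.3 CPM in WT. At level 20 it had 84.5, 97.1 and 68.1 CPM in KO and 44.6, 55.7 and 44.7 CPM in WT. At level 60 it had 85.2, 79.9 and 88.9 CPM in KO and 53.9, 51.1 and 46.7 CPM in WT. Every KO library was above every WT library, but the nearest KO and WT values over all levels differed by a ratio of only 1.15. The log2 fold change was 1.02 ± 0.196 at 0, 0.78 ± 0.195 at 20 and 0.74 ± 0.195 at 60 (SE). The ratio between libraries of the same number lay between 1.52 and 2.11 in all 9 pairs, the narrowest range of the 4 genes. Of its exonic bases 96, or 1.57%, are shared with Gm11646 on the opposite strand, and whether reads were counted by strand is not stated.

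Kpna2 was higher in KO at each level, and its fitted difference was largest at 60, although the change of the difference along the levels did not pass its test (edgeR adjusted p = 1.0 at 20 and at 60). At level 0 it had 14.2, 13.5 and 13.2 CPM in KO and 6.70, 5.47 and 6.57 CPM in WT. At level 20 it had 30.6, 27.4 and 15.6 CPM in KO and 7.72, 8.60 and 7.29 CPM in WT. At level 60 it had 67.9, 39.2 and 39.1 CPM in KO and 11.2, 8.90 and 11.8 CPM in WT. The lowest KO libraries, at level 0, stood just above the highest WT library, at level 60, with a ratio of 1.12. The log2 fold change was 1.13 ± 0.253 at 0, 1.64 ± 0.254 at 20 and 2.20 ± 0.258 at 60 (SE).

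**Figure D1:**
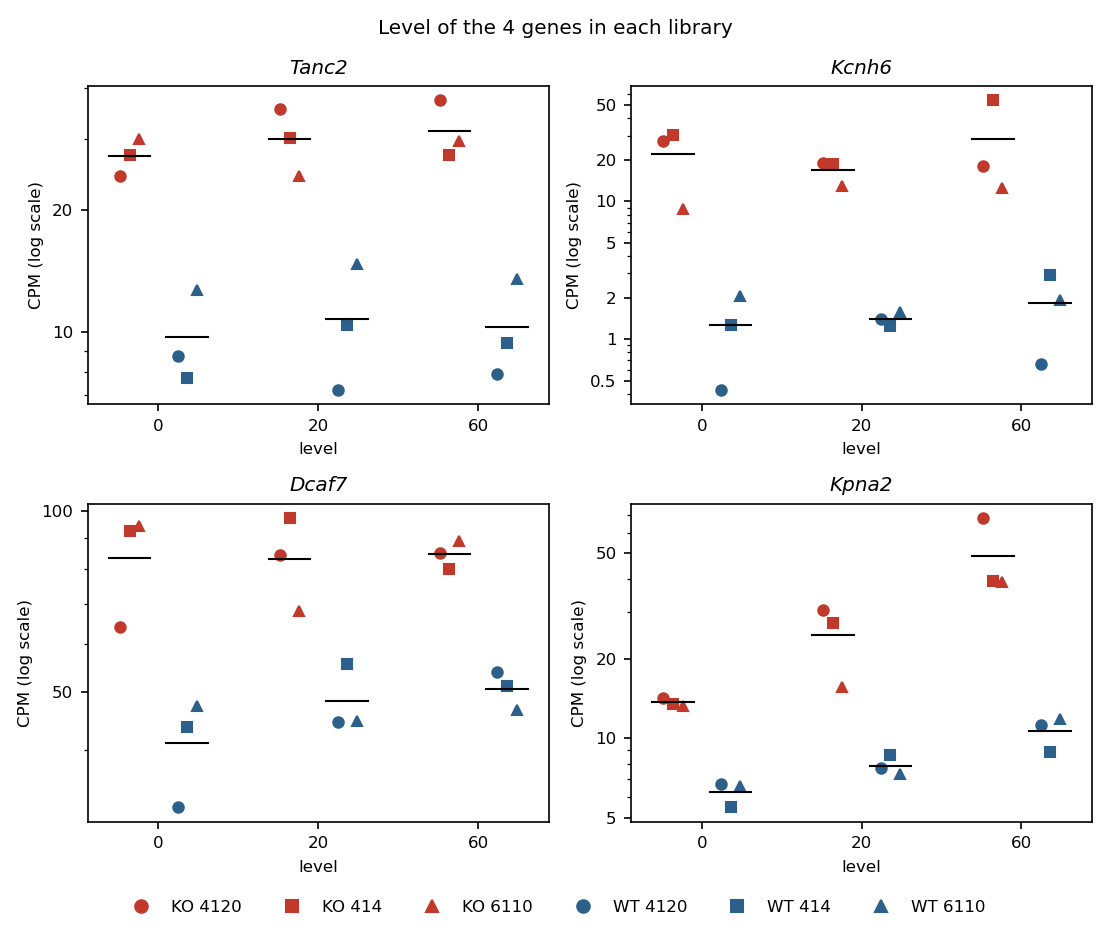
Level of each of the 4 genes in every library, in CPM on a log axis, by level and genotype (KO left of WT; marker shape gives the library number; bars are means of 3 libraries). All KO points lie above all WT points in each panel, which follows in part from the choice of the genes as higher in KO. The KO means of Kpna2 differ most between levels.

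**Figure D2:**
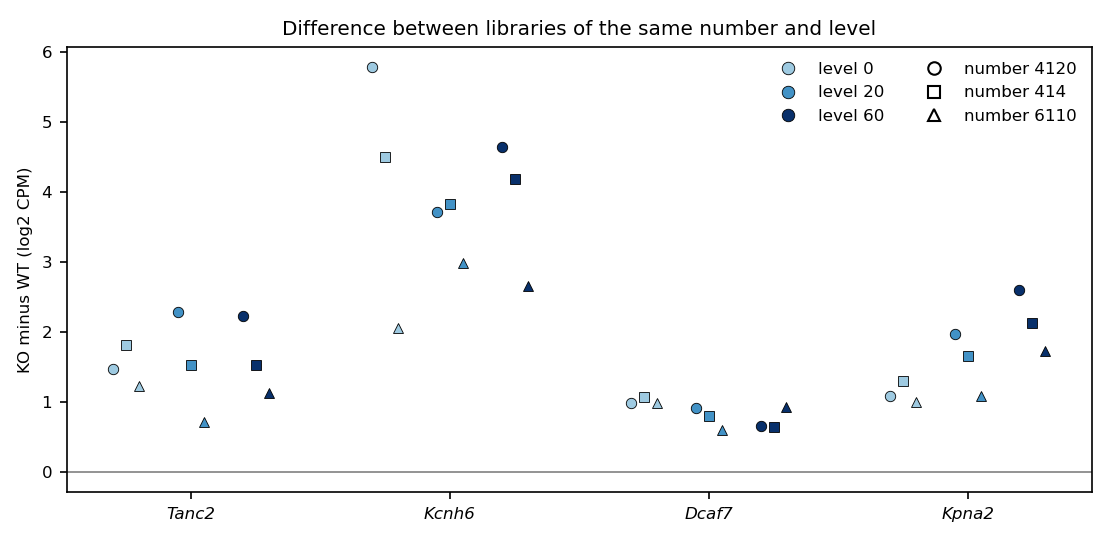
Difference in log2 CPM, KO minus WT, between libraries that share a number and a level, for each gene (colour gives the level, marker shape the number). All 36 differences are above 0, which follows in part from the choice of the genes. Those of Dcaf7 lie close together, and for Tanc2, Kcnh6 and Kpna2 number 6110 has the smallest difference at each level.

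The genes were chosen as higher in KO, and the stated choice names no test or threshold. For description, their differences are set beside the threshold used here, edgeR's quasi-likelihood test at a Benjamini-Hochberg adjusted p under 0.05. Of all tested genes, 0.0991% were called higher in KO at 0, 0.0583% at 20 and 0.0816% at 60, and 0.175%, 0.152% and 0.186% were called lower. These shares are background to the choice and nothing is read from them. Tanc2 and Kcnh6 were past that threshold at all 3 levels, Dcaf7 at 0, and Kpna2 at 20 and 60, which makes 9 of 12 pairs of gene and level. The smallest difference inside the threshold was that of Dcaf7 at 0 (1.02), and those outside it were Kpna2 at 0 (1.13), Dcaf7 at 20 (0.78) and Dcaf7 at 60 (0.74). Passing this threshold rested on small groups, so 1 library of the 2 compared groups was left out in turn. Tanc2 at 0 then passed in 1 of 6 fits, Kcnh6 at 20 in 0 of 6 and Dcaf7 at 0 in 2 of 6. Kpna2 at 60 passed in 6 of 6. Kcnh6 at 0, Kcnh6 at 60 and Tanc2 at 60 passed in 3 of 6 each, Tanc2 at 20 in 1 of 6 and Kpna2 at 20 in 4 of 6. With DESeq2 all 12 pairs passed, with scaling by library size alone 4, with limma on the deposited TPM 4, and with the compared groups fitted alone 1. No direction changed in any of these.

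Per unit of transcript length, on the authors' TPM scale, the order of the mean levels of the 4 genes differed between the genotypes. This order in part restates the difference between the genotypes that chose the genes, so it is given as a description. In KO at 0, Dcaf7 averaged 27.8 ± 8.56 TPM, Kpna2 12.96 ± 3.50, Kcnh6 7.14 ± 3.37 and Tanc2 4.21 ± 1.28 TPM (SD, n = 3). In WT at 0, Dcaf7 averaged 11.8 ± 4.45 TPM, Kpna2 4.86 ± 0.761, Tanc2 1.21 ± 0.394 and Kcnh6 0.374 ± 0.252 TPM. Kcnh6 thus stood above Tanc2 in the KO means and below it in the WT means, which was so at 20 and 60 as well. In KO at 0 the libraries of Kcnh6 (3.67 to 10.4 TPM) and Tanc2 (2.94 to 5.50 TPM) overlapped, so this pair of neighbours in the order does not differ beyond its spread, while in WT at 0 they did not overlap. Within single libraries the order of this pair was reversed in KO number 6110. There Kcnh6 was below Tanc2 at 0 (3.67 against 5.50 TPM) and at 60 (3.68 against 3.96 TPM). At 60 Kpna2 led in KO with 40.6 ± 24.9 TPM, against 23.9 ± 7.85 TPM for Dcaf7, and the ranges of these also overlapped. Within each KO library at 60 Kpna2 was above Dcaf7. The values were 68.6 against 30.5 TPM in number 4120, 21.05 against 15.2 in 414 and 32.1 against 25.9 in 6110.

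Along the levels 1 of the 4 genes passed the test, and that one was chosen partly on the libraries tested. Kpna2 rose in KO cells at 60 against 0 by 1.84 ± 0.254 on the log2 scale (SE, edgeR adjusted p = 0.0011), and it was higher at 60 in 3 of 3 numbers, by 4.77, 2.90 and 2.96 times. Kpna2 was chosen as higher in KO, and that difference was largest at 60. Its high KO values at 60 thus helped to choose it, and this p is not independent of the choice. In this comparison 2.54% of all tested genes were called, 341 higher and 95 lower. The other 3 genes had log2 changes of 0.21 (Tanc2), 0.35 (Kcnh6) and 0.02 (Dcaf7) in KO at 60, with edgeR adjusted p from 0.84 to 0.99. At 20 against 0 in KO, where 0.449% of genes were called, none of the 4 was, and Kpna2 had 0.84 ± 0.248 (SE, edgeR adjusted p = 0.43). In WT cells none of the 4 was called at 20, where 0.6% of genes were called, or at 60, where 0.221% were. Kpna2 in WT at 60 was higher in 3 of 3 numbers, by 1.67, 1.63 and 1.79 times, with a log2 change of 0.77 ± 0.253 (SE, edgeR adjusted p = 0.32).

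The larger change of Kpna2 in KO was not shown to differ from that in WT. The difference between the genotypes in the response at 60 was 1.07 ± 0.353 on the log2 scale (SE, edgeR adjusted p = 1.0), and at 20 it was 0.51 ± 0.353 (edgeR adjusted p = 1.0). For the other 3 genes these differences lay between −0.50 and 0.13. By edgeR 0% of genes were called for the difference at 20 and 0% at 60. At an unadjusted p under 0.05 there were 68 genes at 20 and 188 at 60, and DESeq2 called 1 and 2. The edgeR fit took libraries of a number as separate, although in KO those at 60 and 0 deviated from their group means together. Its test of a response may therefore miss differences, and not passing does not show that the responses are alike. By number (4120, 414 and 6110), the log2 change of Kpna2 at 60 was 2.25, 1.53 and 1.56 in KO. In WT it was 0.73, 0.70 and 0.83. As high KO values helped to choose Kpna2, nothing more is read from these. When the library number was used as a block, the Kpna2 rise in KO at 60 was 1.80 (edgeR adjusted p = 0.00033), and the count of genes called in that comparison was 1094 against 436 without it. By limma on the deposited TPM the same rise was 1.50 with an adjusted p of 0.23, which does not pass.

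Kpna2 counts carry an uncertainty from a copy elsewhere in the genome. The transcript of Gm10184, a processed copy on chromosome 17, was 99.9% identical to that of Kpna2 over 1968 of its 2054 bases, so reads could be assigned to either. Gm10184 held 6.99% to 12.4% of the counts of both genes together in KO libraries and 13.2% to 17.6% in WT libraries. It moved the same way: its level in KO at 60 against 0 rose by 1.51 ± 0.256 on the log2 scale (SE, edgeR adjusted p = 0.0042), and in WT its change was 0.83 ± 0.259 (edgeR adjusted p = 0.29). Summed over both genes, the level was 14.6 to 73.0 CPM in KO and 6.38 to 13.8 CPM in WT libraries, without overlap. The annotated pseudogene Kpna2-ps had 1 count in all libraries together. A transcript listed under Med20, a subunit of the Mediator complex, was 92.5% identical over 1891 bases. Med20 had 14527 counts in all libraries, more than Kpna2, and its log2 differences, KO over WT, were 0.48 at 0, 0.33 at 20 and 0.28 at 60, with a change of 0.20 in KO at 60 against 0 (edgeR adjusted p from 0.57 to 0.89, none passing). The closest relatives of the other members, Tanc1 for Tanc2 (67.9% over 3425 bases) and Kcnh2 for Kcnh6 (80.3% over 1514 bases), were more distant and had 419 and 29 counts in all libraries.

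**Figure D3:**
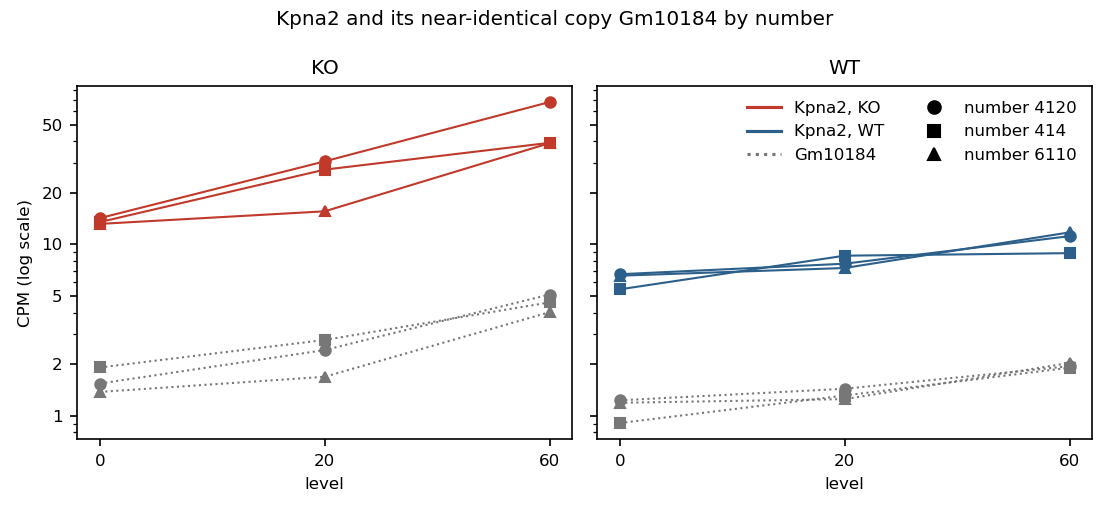
Kpna2 (solid) and its near-identical copy Gm10184 (dotted) along the levels, in CPM on a log axis, KO in the left panel and WT in the right, each line following 1 library number. Kpna2 in KO reaches 39.1 to 67.9 CPM at 60, against 8.90 to 11.8 CPM in WT, and the copy follows at a lower level.

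The other genes of the stretch were about as often lower as higher in KO. Of the 32 other tested genes that start in the same window, 15 had a positive difference, KO over WT, in the mean of the 3 levels, with a median of −0.05 on the log2 scale (0.04 when libraries are scaled by their size alone), against 50.5% positive and a median of 0.01 over the 17155 other tested genes. At single levels none of the 32 was called, where 0.0583% to 0.0991% of all genes were called higher and 0.152% to 0.186% lower. In the mean of the levels, whose p-values may be too small as said above, 2 of the 32 were called higher, March10 and LOC115487808. There 3 were called lower, Strada, Tlk2 and Snord104, and 4.29% and 6.62% of all tested genes were called higher and lower. Going out from Kcnh6, the gene before it, Gm11652, had −0.65 ± 0.340. Farther out, beyond Tanc2 and March10, 1700052K11Rik had −0.23 ± 0.25 and the mannose receptor family gene Mrc2 −0.14 ± 0.39 (SE). Of the 5 genes after Dcaf7, the mitochondrial translation activator gene Taco1 had 0.13 ± 0.225 and the kinase gene Map3k3 0.17 ± 0.123 (SE). The actin-regulating Limd2 had −0.15 ± 0.160, and Strada, a partner of the LKB1 kinase, −0.51 ± 0.135 (edgeR adjusted p = 0.026). Strada, the last of these 5, starts 155 kb from the start of Kcnh6, where start means the lower coordinate. The remaining one, LOC115487809, had 0.06 ± 0.265, so these 5 had neither the size nor a common direction of the 4.

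Before Tanc2 a pair of genes with few counts had the direction of the 4. March10, which encodes a membrane-associated RING-type ubiquitin ligase, had 54, 41 and 45 counts summed over the 3 KO libraries at 0, 20 and 60, and 0 counts in WT at each level. A WT count of 0 over the group was taken to allow up to 3 counts. With that limit, the fold of KO over WT was at least 13.7 at 0, 13.01 at 20 and 14.4 at 60. These limits take the KO counts as observed and leave out their counting error. Its start lies 647 kb before that of Kcnh6. The lncRNA gene LOC115487808, inside the span of March10, had 46, 23 and 115 counts in KO and 9, 0 and 5 in WT, and without a stated strand the reads of the pair cannot be told apart where they overlap. Neither passed the test at a single level. In the mean of the levels both did, March10 with an edgeR adjusted p of 0.00044 and LOC115487808 with a log2 difference of 4.12 ± 0.595 (SE, edgeR adjusted p = 0.0012). These p-values take libraries of the same number as separate and may be too small. Both genes averaged under 1 CPM in KO. The fitted log2 differences of the remaining 30 neighbours lay between −0.80 and 0.82.

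**Figure D4:**
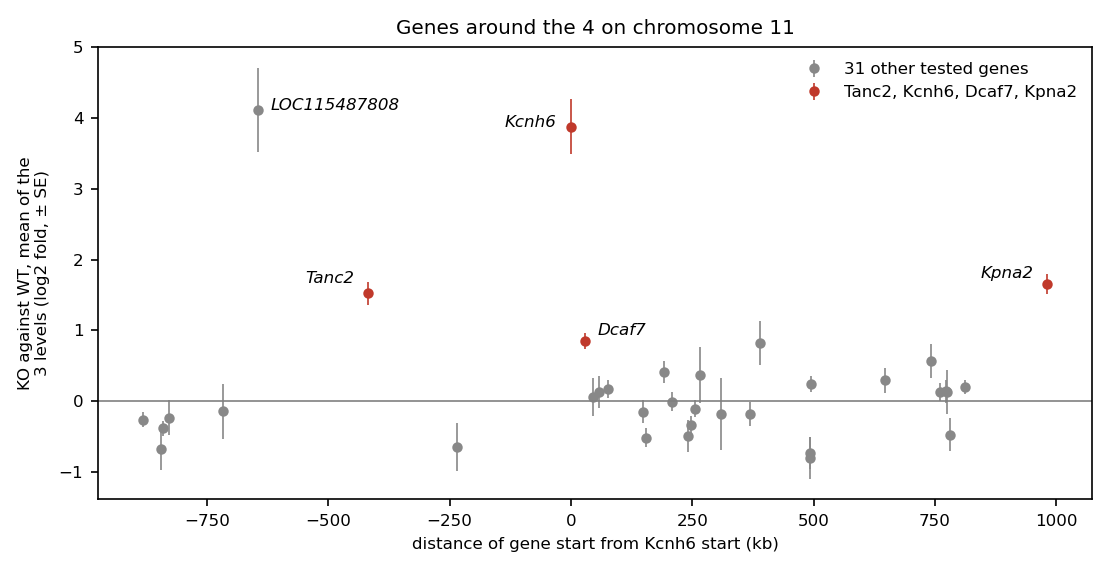
Fitted log2 fold, KO over WT in the mean of the 3 levels (± SE), of the tested genes that start in the window, against the distance of their start from that of Kcnh6 in kb. Red points are the 4 genes and grey points 31 others; March10, with 0 counts in WT, is not drawn. Of the grey points 30 lie between −0.80 and 0.82, and LOC115487808 is high.

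Calls among genes related to the 4 are set beside the shares over all tested genes. The p-values in the mean of the levels may be too small, as said above. Of the 11 other tested importin and nuclear transport genes, 0 were called in each of the 9 comparisons at or between single levels, in which 0% to 2.54% of all tested genes were called, so a count of 0 among 11 does not set the list apart. In KO against WT at 60 their median was 0.20 on the log2 scale, against 0.02 over all tested genes. In the mean of the levels Kpna4, another importin alpha, was called higher (log2 difference 0.52, edgeR adjusted p = 0.028), as were 4.29% of all tested genes. It averaged 85.3 CPM over KO and 58.8 over WT libraries. Kpnb1, the importin beta that carries Kpna2, averaged 125 CPM in KO and 111 CPM in WT, with a log2 difference of 0.20 at 60. The response of Kpna4 at 60 against 0 was 0.94 in KO and 0.93 in WT, and edgeR's adjusted p of 0.055 and 0.18 did not pass. The GTPase Ran, which releases cargo in the nucleus, had 0.33 in KO against WT at 60. Of the EAG and ERG potassium channels, only Kcnh7 passed the count filter besides Kcnh6, with means of 0.0136 CPM in KO and 0.184 CPM in WT.

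Of 19 other genes for the CUL4 ligase core, DCAF receptors and DYRK and HIPK kinases, 0 were called at or between single levels. In those comparisons 0% to 2.54% of all tested genes were called. In the mean of the levels 2 were, the kinase gene Hipk1 with a log2 difference of 0.48 (edgeR adjusted p = 0.026) and the ligase receptor gene Dcaf15 with −0.45 (edgeR adjusted p = 0.034). In that mean 4.29% of all tested genes were called higher and 6.62% lower, so neither count sets the list apart. The median log2 difference of the 19, KO over WT, was 0.10 at 0, 0.01 at 20 and 0.08 at 60, against 0.01, −0.02 and 0.02 over all tested genes. The adaptor Ddb1 averaged 243 CPM in KO and 204 CPM in WT, and Hipk1 158 CPM in KO and 112 CPM in WT, with log2 differences at 60 of 0.32 and 0.68. Of the 5 other TANC scaffold and membrane-associated guanylate kinase genes, 0 were called in any of these comparisons, and their medians were −0.12, −0.17 and −0.12. Beside the same shares, a count of 0 among 5 does not set this list apart. Dlg4, the postsynaptic scaffold PSD-95 that binds TANC proteins, averaged 59.4 CPM in KO and 65.3 CPM in WT.

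Because Kpna2 is known from dividing cells, 20 genes of the G2 and M phases were set beside it. In KO against WT 0 of them were called at 0, where 0.0991% of all tested genes were called higher and 0.175% lower. At 20 the count was also 0, against 0.0583% and 0.152%. In KO against WT 11 of the 20 had a positive difference at 0, 10 at 20 and 16 at 60. Their medians were 0.09, −0.01 and 0.30 on the log2 scale. Over all tested genes 50.5%, 48.3% and 52% were positive, with medians of 0.01, −0.02 and 0.02. At 60 in KO against WT 1 of the 20 was called, which was lower, as were 0.186% of all tested genes. In KO at 60 against 0, where Kpna2 rose and 2.54% of all tested genes were called, 0 of the 20 were, with a median log2 change of −0.06. In WT the median was −0.23 with 0 called, against 0.221% of all tested genes. Their summed level was 92.6 to 234 CPM in KO and 104 to 200 CPM in WT at 60, so it did not separate the genotypes. The proliferation marker Mki67 averaged 27.6 CPM in KO and 27.0 CPM in WT over the levels, and Top2a 17.2 and 15.3 CPM. Foxm1, a transcription factor of mitotic genes, was the gene called lower at 60. It had 6.95 ± 1.67 CPM in KO at 60, against 20.2 ± 4.17 CPM in WT (SD, n = 3 each). Its log2 difference, KO over WT, was −1.54 at 60 (edgeR adjusted p = 0.0085), and −1.16 at 0 and −1.13 at 20, which did not pass. Its change in KO at 60 against 0 was −0.80 (edgeR adjusted p = 0.1). In the mean of the levels, whose p-values may be too small, Foxm1 was called lower (log2 difference −1.28, edgeR adjusted p = 5.9e-05). Kif11, a mitotic kinesin gene, was called higher there, averaging 8.91 CPM over KO and 5.70 over WT libraries (log2 difference 0.66, edgeR adjusted p = 0.043). Of all tested genes 4.29% were called higher and 6.62% lower there.

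The genes whose profile over the 18 libraries was most like that of each member came from other chromosomes. Likeness was measured as the root mean square difference of centred log2 CPM among 10093 other genes whose mean reached 5 CPM. Nearest to Dcaf7 were Atmin (0.157), Stk24 (0.181) and Cd84 (0.192), which lie on chromosomes 8, 14 and 1. Nearest to Tanc2 were Tctex1d2 (0.377), M1ap (0.390) and Clba1 (0.392), on chromosomes 16, 6 and 12. Kpna2 was nearest to the pseudogenes Gm15459 (0.429) and Gm29719 (0.533) and to the interleukin 7 receptor gene Il7r (0.549), on chromosomes 5, 17 and 15. Kcnh6 had no close match: its nearest were the adhesion gene Cadm1 (1.14), Tulp4 (1.21) and Clba1 (1.25). The measure includes the difference between the genotypes that chose the 4 genes, so its size follows that difference and says little of other features of a profile.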

How the data were processed

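RNA from 18 mouse BMMC libraries was analysed. The authors deposited 1 table of 45777 genes with a read count, an FPKM and a TPM per library, per the file headers, in 54 value columns that were all mapped to libraries. The submitters' processing notes name HISAT2 2.1.0, StringTie 2.1.3b and mm10, and strandedness is not given in the sources used here. Deposited counts were kept by filterByExpr (17159 genes), scaled with TMM factors and fitted with 1 mean per group in edgeR 4.0.16 under R 4.3.3. A gene was called when its p, adjusted by Benjamini-Hochberg over all genes kept, was under 0.05. For CPM the library sizes were multiplied by the TMM factors, and log2 CPM had a prior count of 2. Deposited TPM served for levels between genes and, with a pseudocount of 0.1, for limma 3.58.1. The deposited FPKM were not used. DESeq2 1.42.0 was an alternative. Transcripts (GENCODE M21) were compared with blastn 2.17.0. Figures were drawn with matplotlib 3.10.9. The script was tested on simulated data.

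The members, gene lists and window were chosen with earlier results of these data known. Named are the members, the 6 tested genes on each side of Kcnh6, the 3 most similar genes per member, and called or abundant list members. The number pairs a comparison where same-numbered libraries' deviations correlated above 0.1 in all 3 numbers, as found in 4 comparisons: KO against WT at 60 (0.431 to 0.527), 20 against 0 in KO (0.398 to 0.582), 60 against 0 in KO (0.333 to 0.667) and 20 against 0 in WT (0.622 to 0.763). Libraries of a group were compared for copies and none was found. Bounds cover the counting error of a WT count of 0 only, not that of the KO counts.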

Additional observations from a re-analysis of the deposited data

How the results depend on the processing

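Alternatives were other scaling factors (RLE, library size alone), no count filter, the library number as a replicate block, the mitochondrial share as a covariate, DESeq2, limma on log2(TPM + 0.1), the compared groups alone, and each library left out in turn. Apart from the left-out libraries, 174 recomputed responses and differences in response kept their direction and their side of the threshold, 1 no longer passed and 17 changed sign. The KO against WT differences of the 4 genes, given without a test, all kept their sign, and 3 of them moved by more than the spread between libraries. Which of them passed an adjusted p under 0.05 depended on the setting. As reported and with RLE factors 9 of 12 pairs of gene and level did, and 8 without the count filter. With the mitochondrial share 8 passed, with library size alone 4, with limma 4 and with the compared groups alone 1. With the block 10 passed, and with DESeq2 12. In the mean of the levels 736 genes were called higher and 1136 lower, 418 and 446 with library size alone, 318 and 428 with the mitochondrial share, 246 and 207 with limma, 1208 and 1769 with DESeq2 and 1882 and 2090 with the block. None of the 17 was called as reported, and the cause of these changes of sign was not tested. Under scaling by library size alone the all-gene median moved, by 0.16 in KO against WT at 0 and at 20, 0.11 in the mean of the levels, −0.22 in KO at 60 against 0 and −0.14 in the response difference at 60.

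With library size alone, Kpna2 in KO against WT at 0 was 1.30, Dcaf7 was 0.0042 (20 against 0 in KO) and −0.18 (60 against 0 in KO), Tanc2 was −0.017 (60 against 0 in WT), and the median of the neighbouring genes was 0.0434, above 0 where −0.05 is reported. With limma on TPM, Kpna2 in KO against WT at 0 was 1.37, and its rise at 60 in KO was 1.50 and no longer passed (limma adjusted p = 0.23, against 0.00033 to 0.028 in the other counts-based settings except DESeq2, with 1e-09). Also with limma, Dcaf7 was 0.035 (20 against 0 in KO) and −0.23 (60 against 0 in KO), Tanc2 −0.083 (60 against 0 in KO), −0.025 (60 against 0 in WT) and −0.059 (difference at 60), and Kcnh6 −0.039 (60 against 0 in KO). With the mitochondrial share, Kcnh6 was 4.06 in KO against WT at 20, 0.074 for 20 against 0 in KO and 0.094 for the difference at 60. Without the count filter Dcaf7 was −0.0043 (60 against 0 in KO). The Tanc2 difference in response at 20 was 0.0037 with RLE factors, 0.0032 with DESeq2 and 0.0067 with the compared groups alone. Over genes within 5 Mb of Kcnh6 the neighbours' median was −0.0022.

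With the replicate block, the Tanc2 difference in response at 20 was 0.015 and Dcaf7 in KO at 20 against 0 was 0.0011, and no call on a response of the 4 genes changed. The block gave more calls over all genes: in KO against WT 92 genes higher at 0, 41 at 20 and 76 at 60, against 17, 10 and 14 without it.

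With each library left out, these values changed sign (lowest and highest given). In KO, Dcaf7 at 20 against 0 ran from −0.16 to 0.12 and at 60 from −0.14 to 0.11, and Kcnh6 at 60 from −0.52 (without KO number 414 at 60) to 0.71. In WT, Tanc2 at 20 ran from −0.13 to 0.40 and at 60 from −0.18 to 0.32, and Kcnh6 at 20 from −0.23 to 0.65. The difference in response of Tanc2 ran from −0.26 to 0.26 at 20 and from −0.12 to 0.38 at 60, and that of Kcnh6 at 60 from −1.004 to 0.38. The Kpna2 rise in KO at 60 ran from 1.52 to 1.97 and passed in each of the 6 fits. In WT, Kcnh6 rests on 7 to 66 counts per library, which limits its fold, and the copy Gm10184 limits how exactly Kpna2 can be counted.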
